A study of Mus musculus with 27 samples.

Results

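Decorin, biglycan, fibromodulin and lumican, the products of Dcn, Bgn, Fmod and Lum, are small leucine-rich proteoglycans of the extracellular matrix, and Col14a1 encodes the chain of collagen XIV, a collagen that sits on the surface of collagen fibrils. They were followed here through every mouse probe set whose platform symbol is Dcn, Bgn, Fmod, Lum or Col14a1. This gave 5 of 573 named mouse genes, with 7 of 702 named mouse probe sets and of 1813 probe sets in all. Dcn had X53929_at and X53929_s_at, Lum had BC005550_at and BC005550_s_at, and Bgn (BC005452_s_at), Fmod (X94998_at) and Col14a1 (AJ131395_at) had 1 each. Total RNA came from lymph node, spleen, thymus, bone marrow, lung, liver, kidney, brain and testis of untreated wild-type male C57BL/6 mice aged 6 to 8 weeks, with 3 arrays per tissue and 27 in all. The array was a custom 1-colour Affymetrix design for genes that build, carry or bind glycans, and bone marrow was taken from femurs. The labels compare no treatment or genotype, so the comparison that the design implies is between tissues.

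Small leucine-rich proteoglycans have a protein core that folds into a curved stack of leucine-rich repeats and binds collagen fibrils, on which they control fibril spacing and diameter. Decorin and biglycan carry chondroitin or dermatan sulfate chains and bind TGF-beta, while fibromodulin and lumican carry keratan sulfate chains. Fibroblasts and related stromal cells are the usual source of these proteins and of collagen XIV. Lymph node, spleen and thymus hold reticular fibroblasts that build the meshwork in which lymphocytes move.

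Intensities are given as deposited, on a linear scale, in the order of the replicate numbers. Differences are log2 values ± the SE of the limma fit. A probe set was called when its Benjamini-Hochberg adjusted p, taken over all 702 mouse probe sets within a comparison, was under 0.05 and its log2 difference was at least 1, which is 2-fold. The labels do not tie the 3 arrays of a tissue to different animals. The p-values therefore cover the spread between arrays and no more, and the number of arrays limits the precision. In whole tissue, fewer cells of a type and less RNA per cell cannot be told apart. Human probe sets on the same array, which have no intended target in mouse RNA, had a median intensity of 205.2 and a 95th percentile of 590.1 and served as a rough background. Where either level of a fold lies in that range, it compares signals and is no exact ratio of transcripts. Levels of different genes are not compared, and sums over marker probe sets compare arrays with each other and weigh bright probe sets most.

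Labels and markers of the tissues were in step where markers were measured. The 4 named hepatocyte probe sets peaked in liver, the 3 of lung epithelium in lung, the 4 of neutrophils in bone marrow, those of T cells in thymus or lymph node and those of B cells in lymph node or spleen. Cx3cl1 peaked in brain, whereas Ugt8a, from the same list of neurons and glia, peaked in kidney (531 ± 75.1 for BC016885_at, SD, n = 3). Markers of kidney epithelium, germ cells and smooth muscle were not analysed here. The ratio of the 3′ to the 5′ beta-actin control, a sign of RNA quality, lay between 1.03 and 1.81 in 26 arrays and at 3.73 in testis replicate 1. Thymus replicate 1 stood above its tissue mean in 6 of the 7 probe sets and thymus replicate 3 below it in all 7, which bears on the thymus results. Kidney replicate 1 had a B cell sum of 5242, against 2659 and 2508 in replicates 2 and 3. Its 3′ beta-actin control read 20022, against 8410 and 8631.

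All 7 probe sets differed among the 9 tissues by the moderated F test of limma, at which 52.3% of all mouse probe sets were called. Biglycan had the widest range, 37.0-fold between its highest and lowest tissue (log2 5.21, adjusted p = 7.25e-16). Decorin followed with 27.3-fold on X53929_at (adjusted p = 9.13e-14) and 25.6-fold on X53929_s_at (adjusted p = 1.26e-14). The ranges of these 3 probe sets lay at the 95.9th to the 97.4th percentile of all mouse probe sets. Fibromodulin spanned 7.10-fold (adjusted p = 4.00e-13), Col14a1 4.84-fold (adjusted p = 3.13e-11) and lumican 4.31-fold and 3.87-fold on its pair of probe sets (adjusted p = 3.27e-06 and 2.29e-07). These last 4 lay between the 71.2nd and the 81.8th percentile.

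**Figure D1:**
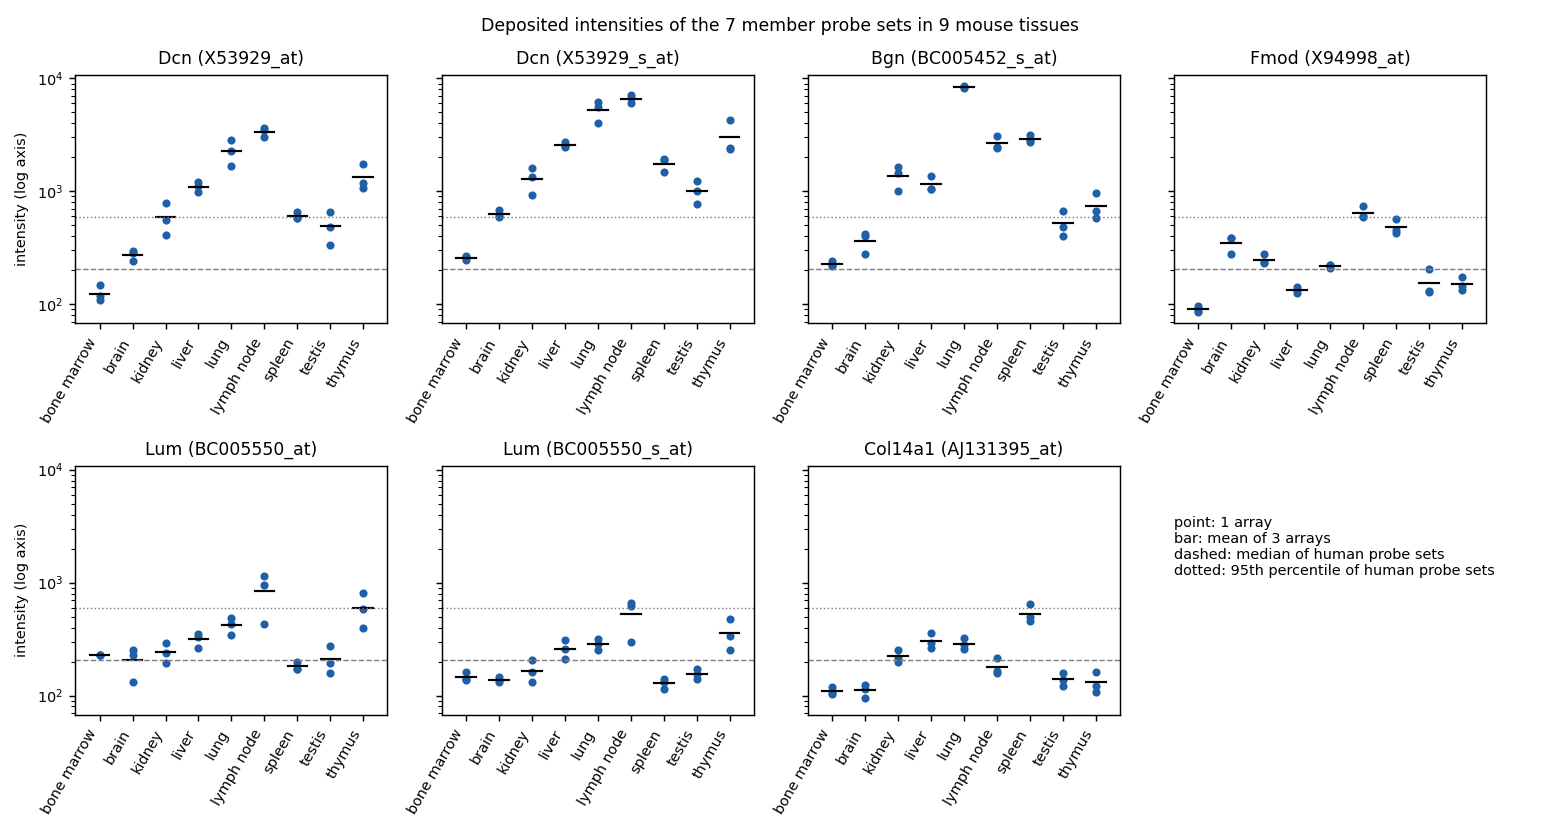
Deposited intensity (log axis) of each of the 7 probe sets in 9 tissues, with a point for each array and a bar at the mean of the 3 arrays. The dashed line marks the median (205.2) and the dotted line the 95th percentile (590.1) of human probe sets, and biglycan in lung, at 8242 to 8589, is the highest level of its panel.

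Decorin, which binds collagen fibrils and holds TGF-beta in the matrix, was highest in lymph node and lung and lowest in bone marrow. On X53929_s_at, the 3 lymph node arrays read 6004, 6675 and 7164. Lung read 4033, 5610 and 6161, so that its highest array lay above the lowest lymph node array. Thymus read 4321, 2379 and 2418. Its first array lay well above the others, which were close to liver at 2540, 2480 and 2729. Spleen read 1936, 1468 and 1881, kidney 1342, 1607 and 929, and testis 1014, 777 and 1238. Brain read 689, 594 and 603. Bone marrow, at 265, 248 and 259, lay below every array of every other tissue and within the range of the human probe sets.

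The other decorin probe set, X53929_at, read 3026, 3482 and 3630 in lymph node, where each array exceeded all 24 arrays of the other tissues, and 147, 118 and 108 in bone marrow, below all others and below the human median. Its remaining tissues lay between 244 in a brain array and 2857 in a lung array. Across the 27 arrays the pair of decorin probe sets correlated with r = 0.99. Both carry the same accession in their names, so this is agreement of 2 readings of the same samples and not of separate samples.

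Neighbours in decorin's order of tissues mostly lay within 2-fold of each other. On X53929_s_at, lymph node and lung were not separated (log2 0.35 ± 0.21, adjusted p = 0.202), nor were thymus and liver (0.18 ± 0.21, adjusted p = 0.555), spleen and kidney (adjusted p = 0.0727) or kidney and testis (adjusted p = 0.216). The step from brain down to bone marrow was the only one between neighbours that was called (1.29 ± 0.21, adjusted p = 2.08e-05), and it was called on X53929_at too (1.15 ± 0.24, adjusted p = 2.56e-04). On X53929_at the step from lymph node to lung had adjusted p = 0.0403 but stayed under the size threshold at 0.61 ± 0.24.

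Biglycan, the closest relative of decorin in this set and also a carrier of chondroitin or dermatan sulfate, stood out in lung. Its lung arrays read 8589, 8419 and 8242, above all 24 other arrays. The next tissues were spleen at 2842, 3135 and 2727 and lymph node at 2449, 2437 and 3076, which overlapped each other. Kidney followed at 1628, 1448 and 1001, with liver at 1043, 1042 and 1363. Both overlapped as well, and thymus, testis and brain lay lower still. Thymus read 965, 673 and 577, testis 405, 482 and 675, and brain 422, 277 and 401. Bone marrow read 220, 221 and 243, below all other arrays.

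The lung step of biglycan was large against the spread between arrays. Lung exceeded spleen, the next tissue, by 1.54 ± 0.20 on the log2 scale, or 2.91-fold (limma adjusted p = 8.87e-07). Spleen and lymph node were not separated (0.13 ± 0.20, adjusted p = 0.776), nor were kidney and liver (0.22 ± 0.20, adjusted p = 0.471) or testis and brain (0.50 ± 0.20, adjusted p = 0.0572). Lymph node exceeded kidney by 0.99 ± 0.20, just under the size threshold, with adjusted p = 2.36e-04.

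Fibromodulin, a keratan sulfate carrier that binds collagen and is prominent in tendon and cartilage, had a different order. Lymph node arrays read 739, 589 and 599, above all others, and spleen arrays 564, 459 and 429. Brain followed at 384, 279 and 390, its highest rank among the 5 genes. Kidney read 234, 280 and 231, and lung 211, 221 and 225. Lung, which led for biglycan, was thus near the human median for fibromodulin. Testis read 130, 132 and 205, thymus 146, 173 and 134, and liver 132, 127 and 143. In bone marrow it read 87.6, 85.3 and 97.2, below all other arrays.

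Fibromodulin levels lay close to the background in most tissues. All 3 arrays exceeded the human median in 5 of 9 tissues, and in no tissue did all 3 exceed the human 95th percentile, which only 2 lymph node arrays passed. Lymph node and spleen did not overlap but were not separated by the test (0.41 ± 0.16, adjusted p = 0.0999). Spleen lay above brain with adjusted p = 0.0165, at 0.47 ± 0.16 and so under the size threshold.

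Lumican, the keratan sulfate proteoglycan that keeps collagen fibrils evenly spaced in the cornea and also occurs in other connective tissues, was highest in lymph node and thymus, with a wide spread between arrays. On BC005550_at, lymph node read 430, 951 and 1149. Thymus read 811, 581 and 393. Lymph node replicate 1 was lower than 2 of the thymus arrays, so these tissues overlapped. Lung read 345, 434 and 484, and liver 353, 331 and 261. In the other 5 tissues the arrays lay between 131 in a brain array and 294 in a kidney array. Spleen, at 199, 173 and 171, was the lowest tissue by mean and lay below the human median in every array.

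BC005550_s_at gave lumican the same leading tissues. It read 297, 661 and 619 in lymph node and 481, 335 and 252 in thymus, and its lowest reading was 113 in a spleen array. The pair of lumican probe sets correlated with r = 0.96 over the 27 arrays and carry the same accession. No step between neighbouring tissues was called on either probe set, and on BC005550_at none had an adjusted p under 0.05, so the order is not resolved from rank to rank. Lumican passed the human median with all 3 arrays in 5 tissues on BC005550_at and in 4 on BC005550_s_at, and the human 95th percentile with all 3 arrays in none.

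Col14a1, which encodes the fibril-associated collagen XIV, was highest in spleen. The spleen arrays read 649, 454 and 493, above all 24 other arrays. Liver read 359, 264 and 293, and lung 258, 325 and 280. These were the only tissues in which all 3 arrays exceeded the human median. Kidney read 215, 254 and 199, and lymph node 157, 166 and 216. Lymph node, the leading tissue of decorin, fibromodulin and lumican, thus ranked below spleen, liver, lung and kidney for Col14a1. Thymus read 162, 122 and 108 and testis 157, 137 and 122. Brain read 123, 96.0 and 114, and bone marrow 104, 119 and 103. Among these last 4 tissues, each overlapped with its neighbour in the order. Spleen exceeded liver by 0.80 ± 0.17 (adjusted p = 3.05e-04), which is under the size threshold, and liver and lung were not separated (0.08 ± 0.17, adjusted p = 0.722).

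The human probe sets of the same genes gave a check of how far mouse RNA binds to a related sequence. There were 7 of them, 4 for DCN and 1 each for BGN, FMOD and LUM, and their tissue means ranged over 1.21-fold to 1.54-fold, against 3.87-fold to 37.0-fold for the mouse probe sets. BGN read 109 to 169 over the 27 arrays and peaked in kidney, not in lung. Across the 9 tissue means, the correlation of a human probe set with a mouse probe set of its gene ran from -0.55 to 0.60. These points share the arrays and are given as a description.

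**Figure D2:**
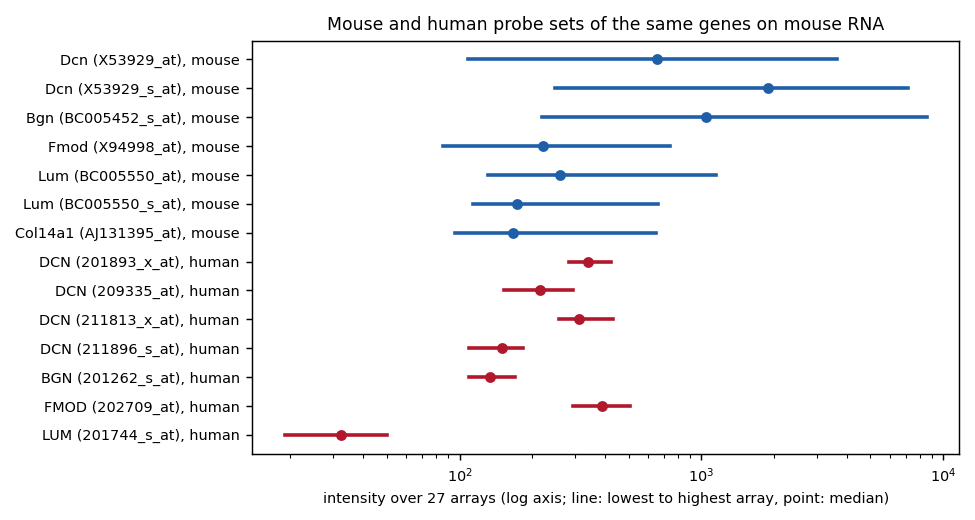
Intensity over the 27 arrays (log axis) of the 7 mouse probe sets (blue) and the 7 human probe sets of the same genes (red), with a line from the lowest to the highest array and a point at the median. Mouse biglycan runs from 220 to 8589, while human BGN stays between 109 and 169.

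Each tissue was then set against the other 8, whose means had equal weight. Of the 63 such contrasts, 7 probe sets in 9 tissues, 13 were called higher, 8 lower and 42 neither. The calls were spread over 7 tissues. Lymph node, lung, spleen and thymus had calls only upwards, and bone marrow, brain and testis only downwards.

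In lymph node, 6 of the 7 probe sets, from all 4 proteoglycan genes, were called higher, where 11.8% of all mouse probe sets were. Decorin was higher by 2.49 ± 0.18 on X53929_at (5.60-fold, adjusted p = 2.37e-11) and by 2.25 ± 0.16 on X53929_s_at (4.75-fold, adjusted p = 2.25e-11). Fibromodulin was higher by 1.68 ± 0.12 (3.20-fold, adjusted p = 2.26e-11). Lumican was higher by 1.52 ± 0.23 on BC005550_at (2.86-fold, adjusted p = 5.87e-06) and by 1.39 ± 0.18 on BC005550_s_at (2.62-fold, adjusted p = 6.80e-07). Biglycan was higher by 1.38 ± 0.15 (2.60-fold, adjusted p = 5.06e-08), but by only 0.78 after quantile normalization, which ended its call. Col14a1 did not pass, at -0.14 ± 0.13 (adjusted p = 0.376).

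Of the 8 probe sets on the list of fibroblasts and stroma, 4 were called higher, those of Cxcl12 and Cxcl13, chemokines of reticular stroma, and both of Vcam1, an adhesion molecule. Their list summed to 12631 to 14175 per array in lymph node, against 1639 to 2959 in bone marrow. Cxcl13 had the widest range on the list, 38.4-fold, with 3523 ± 199 (SD, n = 3) in lymph node. Pdgfra, a receptor that marks many fibroblasts, was not called in lymph node, where it read 131, 127 and 112. It read 130, 126 and 110 in kidney and 558, 564 and 575 in lung. The part of stromal content in the proteoglycan levels was not tested.

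In lung, 3 of the 7 probe sets were called higher, with 9.54% of all mouse probe sets called so. Biglycan was higher by 3.26 ± 0.15 (9.60-fold, adjusted p = 8.90e-15), the largest difference of any member in any tissue. Decorin was higher by 1.80 ± 0.18 (3.49-fold, adjusted p = 8.89e-09) and 1.86 ± 0.16 (3.63-fold, adjusted p = 7.46e-10) on its probe sets. The rest were not called. Col14a1 stood at 0.64 ± 0.13, lumican at 0.51 ± 0.23 and 0.49 ± 0.18, and fibromodulin at -0.06 ± 0.12. Of the 8 probe sets on the stromal list, 3 were called higher in lung, those of Pdgfra and Pdgfrb, receptors of platelet-derived growth factor. The others were not called, and Cxcl12, at 619, 642 and 684, and Cxcl13, at 116, 181 and 115, lay below every lymph node and spleen array. Endothelial markers were higher too, in 7 of 8 probe sets, with a sum of 17588 to 22412 per array against 1285 to 4270 in the other tissues. The part of vessel content in the biglycan level was not tested.

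Spleen had 3 calls upwards among the 7 probe sets, against 9.97% of all mouse probe sets. Col14a1 was higher by 1.62 ± 0.13 (3.08-fold, adjusted p = 1.43e-10), its only call. Biglycan was higher by 1.53 ± 0.15 (2.89-fold, adjusted p = 1.10e-08) and fibromodulin by 1.22 ± 0.12 (2.33-fold, adjusted p = 8.92e-09). Decorin was not called, at -0.31 ± 0.18 and 0.09 ± 0.16, and lumican stood at -0.85 ± 0.23 and -0.81 ± 0.18, under the size threshold. The same 4 stromal probe sets as in lymph node were called higher in spleen, with a list sum of 17111 to 20179 per array, the highest of the 9 tissues. Cxcl12, Cxcl13 and Vcam1 carry most of this sum, while Pdgfra and Pdgfrb of the same list were highest in lung.

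In thymus, 1 of the 7 was called higher, where 5.56% of all mouse probe sets were. This was lumican on BC005550_at, at 1.01 ± 0.23 (2.02-fold, adjusted p = 9.72e-04), while BC005550_s_at stood at 0.80 ± 0.18 and decorin at 0.94 ± 0.18 and 0.93 ± 0.16. These values lay at the size threshold and moved across it with single arrays. The lumican call was lost without thymus replicate 1 (0.76), thymus replicate 2 (0.9998), lymph node replicate 1 (0.96), brain replicate 2 (0.98), testis replicate 3 (0.99), kidney replicate 3 (0.995), lung replicate 1 (0.996) or liver replicate 3 (0.997). BC005550_s_at gained the call without thymus replicate 3 (1.02). Decorin gained it without thymus replicate 2 (1.01 and 1.07) or thymus replicate 3 (1.08 and 1.06). Of the 8 stromal probe sets, 2 were called higher in thymus, 1 of Cxcl12 and 1 of Vcam1. Thymus replicate 1 also had the highest stromal sum, 8781 against 6307 and 6612, and the highest endothelial sum, 3693 against 2895 and 2640. The rise was not limited to these lists, since its T cell sum was the highest too, 9753 against 6289 and 7773. Its B cell sum was not, at 6153 against 6340 and 5512. The part of these cell types in its readings was not tested.

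Bone marrow had 4 of the 7 probe sets called lower, where 4.13% of all mouse probe sets were. Decorin was lower, at -2.88 ± 0.18 (7.38-fold, adjusted p = 2.87e-12) and -3.02 ± 0.16 (8.09-fold, adjusted p = 1.97e-13). Biglycan stood at -2.60 ± 0.15 (6.05-fold, adjusted p = 1.42e-12) and fibromodulin at -1.50 ± 0.12 (2.83-fold, adjusted p = 2.45e-10). Each of these 3 genes lay near or below the human median there, so the folds are ratios of signals. Col14a1, at -0.94 ± 0.13, stayed under the size threshold, and reached -1.004 and a call without bone marrow replicate 2. Lumican was not called, at -0.47 ± 0.23 and -0.60 ± 0.18. Cxcl12, Cxcl13 and Pdgfra of the stromal list were called lower in bone marrow.

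Brain had 3 of the 7 called lower, where 10.7% of all mouse probe sets were. Biglycan stood at -1.85 ± 0.15 (3.60-fold lower, adjusted p = 3.89e-10) and decorin at -1.59 ± 0.18 (adjusted p = 5.45e-08) and -1.57 ± 0.16 (adjusted p = 1.17e-08). Fibromodulin lay on the other side, at 0.69 ± 0.12 with adjusted p = 2.95e-05, under the size threshold. Of the 8 stromal probe sets, 4 were called lower in brain, those of Cxcl12, Cxcl13 and Vcam1, with a sum of 1803 to 2098 per array. In testis, 1 of the 7 was called lower, with 13.4% of all mouse probe sets called so. This was biglycan, at -1.29 ± 0.15 (2.45-fold lower, adjusted p = 1.25e-07), and the other 6 stood between -0.83 and -0.49. The same 4 stromal probe sets were called lower in testis, with a sum of 1736 to 2049, and their part in these values was not tested.

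No member was called in kidney, where limma called 13.2% of all mouse probe sets in either direction, and 3 of the 7 had an unadjusted p under 0.05. Kidney values ran from -0.44 to 0.27. None was called in liver either, where 14.4% of all mouse probe sets were called and 4 of the 7 had an unadjusted p under 0.05. Among the latter, Col14a1 (0.73 ± 0.13) and decorin (0.66 ± 0.18 and 0.73 ± 0.16) stood above the other tissues. Fibromodulin stood below (-0.86 ± 0.12). Of the 8 stromal probe sets, 3 were called lower in kidney and the same 3 in liver, those of Cxcl13 and Vcam1. Their part in the member values was not tested.

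**Figure D3:**
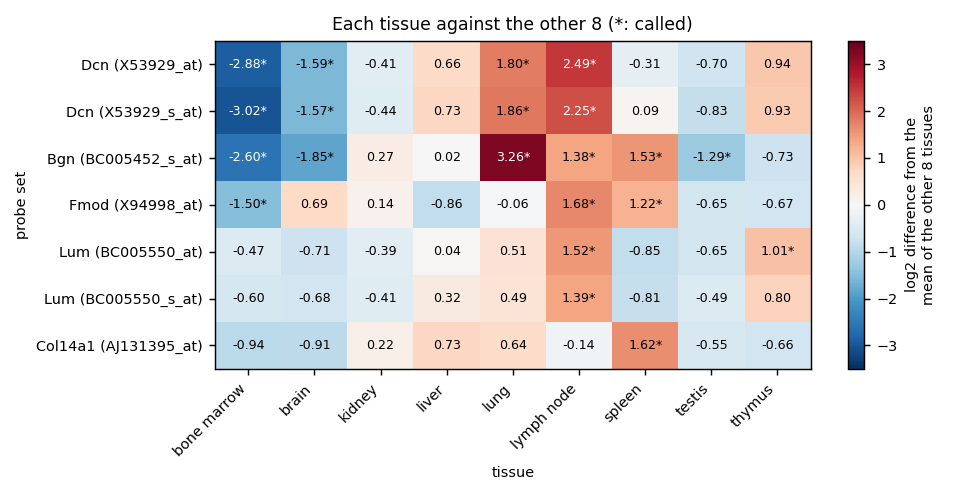
Log2 difference of each tissue (columns) from the mean of the other 8 for each probe set (rows), with an asterisk on the 21 called values. Biglycan in lung (3.26) is the highest value and decorin X53929_s_at in bone marrow (-3.02) the lowest.

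With bone marrow, lymph node, spleen and thymus set against the other 5 tissues, limma called 0 of the 7 probe sets, where 14.7% of all mouse probe sets were called, a share that comes to about 1 in 7. An unadjusted and an adjusted p under 0.05 was found for the same 3 of the 7, under the size threshold. They were fibromodulin (0.29 ± 0.08, adjusted p = 1.65e-03) and lumican (0.48 ± 0.14, adjusted p = 5.13e-03, and 0.31 ± 0.11, adjusted p = 0.0201). Values ran from -0.16 ± 0.10 for biglycan to 0.48 ± 0.14 for lumican on BC005550_at. Lymph node and bone marrow lay at opposite ends for decorin and fibromodulin, both of them within the lymphoid group.

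Between single tissues, 141 of the 252 pairs (36 for each probe set) were called, where 17.0% of all pairs over all mouse probe sets were. Decorin and biglycan had 27 of 36 called on each of their probe sets, fibromodulin 17, Col14a1 16, and lumican 14 and 13.

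Lymph node and spleen, where Cxcl12, Cxcl13 and Vcam1 of the stromal list were called higher, differed in the levels of some of the matrix genes. Of the 7 probe sets, 4 were higher in lymph node and 1 was higher in spleen, where 4.56% of all mouse probe sets were called in either direction. Decorin was higher in lymph node by 2.48 ± 0.24 (adjusted p = 2.11e-08) and 1.92 ± 0.21 (adjusted p = 2.91e-07), and lumican by 2.11 ± 0.30 (adjusted p = 1.52e-05) and 1.95 ± 0.24 (adjusted p = 1.47e-06). Col14a1 was lower in lymph node than in spleen by -1.56 ± 0.17 (adjusted p = 1.58e-07). Biglycan was not called (-0.13 ± 0.20), and neither was fibromodulin (0.41 ± 0.16).

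Spleen and thymus also differed, with 3 of the 7 probe sets higher in spleen and 3 higher in thymus. Of all mouse probe sets, 8.69% were called in either direction. Biglycan and fibromodulin, not called between lymph node and spleen, were called here. Col14a1 was higher in spleen by 2.03 ± 0.17 (adjusted p = 1.11e-09), biglycan by 2.01 ± 0.20 (adjusted p = 3.28e-08) and fibromodulin by 1.68 ± 0.16 (adjusted p = 1.25e-08). Lumican lay lower in spleen, by -1.66 ± 0.30 and -1.42 ± 0.24, as did decorin on X53929_at by -1.11 ± 0.24 (adjusted p = 7.53e-04). The other decorin probe set, at -0.74 ± 0.21, was under the size threshold. Spleen takes part in both of these comparisons, so they are not independent.

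Lung and lymph node, the pair of tissues with the most decorin, parted on 2 of the 7 probe sets, where 18.4% of all mouse probe sets were called in either direction. Biglycan was higher in lung by 1.67 ± 0.20 (3.19-fold, adjusted p = 2.26e-07). Fibromodulin was lower in lung by -1.55 ± 0.16 (2.92-fold, adjusted p = 1.57e-08).

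The difference of each gene from decorin within the same array shows where their signals shifted against each other. It was taken from X53929_s_at on the log2 scale and centred over the arrays of each probe set, so that only changes between tissues count. Biglycan was highest relative to decorin in lung (0.97 to 1.64) and spleen (1.09 to 1.65), and lowest in thymus (-1.61 to -1.27). Fibromodulin was highest in brain (1.77 to 2.23) and low in lung (-1.91 to -1.39), liver (-1.43 to -1.39) and thymus (-2.02 to -0.92). Col14a1 was lowest in lymph node (-2.24 to -1.96). Col14a1 relative to decorin was high in bone marrow (1.75 to 2.03) and spleen (1.16 to 1.51), although in bone marrow both probe sets read near background. Lumican was highest in bone marrow too, at 2.22 to 2.33, under the same limit, and its range in lung was -1.26 to -1.11. Other extremes also rest on readings within the range of the human probe sets. Fibromodulin read 134 to 173 in thymus, 127 to 143 in liver, 211 to 225 in lung and 279 to 390 in brain, and Col14a1 157 to 216 in lymph node. Such differences compare signals and are no exact proportions of transcripts.

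**Figure D4:**
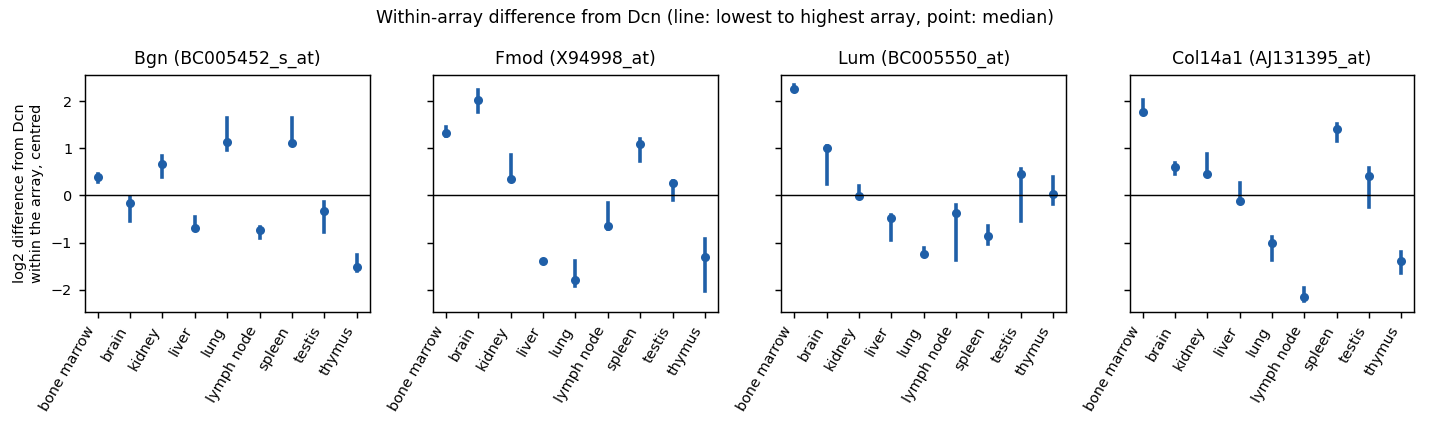
Within-array log2 difference from decorin (X53929_s_at), centred over all arrays, for biglycan, fibromodulin, lumican (BC005550_at) and Col14a1 in each tissue, with a line from the lowest to the highest of 3 arrays and a point at the median. Biglycan is high in lung and spleen, and Col14a1 runs from 1.16 or more in spleen to -1.96 or less in lymph node.

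Correlations over the 9 tissue means describe the same grouping, and they share all arrays. Decorin (X53929_s_at) went with biglycan (r = 0.82) and lumican (BC005550_s_at, r = 0.81) more than with fibromodulin (r = 0.46) or Col14a1 (r = 0.48). Biglycan and Col14a1 had r = 0.76, and lumican (BC005550_at) and Col14a1 had r = -0.09. Over all pairs of mouse probe sets the median was -0.02 and the 95th percentile 0.69.

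Within tissues, some of the probe sets moved together from array to array. After each tissue mean was taken off, the 19 pairs of probe sets from different genes had a median r of 0.35 over the 27 arrays, and 7 of them exceeded the 95th percentile of all pairs of mouse probe sets, 0.51. For example, decorin (X53929_s_at) and biglycan had r = 0.61, and lumican (BC005550_at) and Col14a1 r = 0.75. Decorin and lumican had r from 0.35 to 0.63 over their probe sets, and only X53929_s_at with BC005550_s_at exceeded 0.51. At the low end, biglycan and Col14a1 had r = 0.32, fibromodulin and Col14a1 0.11, and fibromodulin and lumican (BC005550_at) -0.04, where the median of all pairs was 0.03. Of the 27 arrays, 3 had all 7 probe sets above their tissue means, which were kidney replicate 2 (median deviation 0.29), brain replicate 1 (0.15) and lung replicate 2 (0.04). All 7 lay below in kidney replicate 3 (-0.31), thymus replicate 3 (-0.28) and testis replicate 2 (-0.14), and 6 of 7 lay above in thymus replicate 1 (0.42) and lymph node replicate 3 (0.22). The share of all mouse probe sets above or below the tissue mean in these arrays is not given here. These counts therefore do not set a trait of the members apart from a shift of the whole array. Decorin and lumican each enter them through a pair of probe sets. The stromal sum in kidney was 3168 in replicate 2 and 2529 in replicate 3, with 2883 in replicate 1. Lymph node replicate 1 stood apart for lumican alone, by -0.85 and -0.74, while its stromal sum of 14175 was the highest of the 3. Whether a different share of stroma in the dissected piece moved with these readings was not tested.

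**Figure D5:**
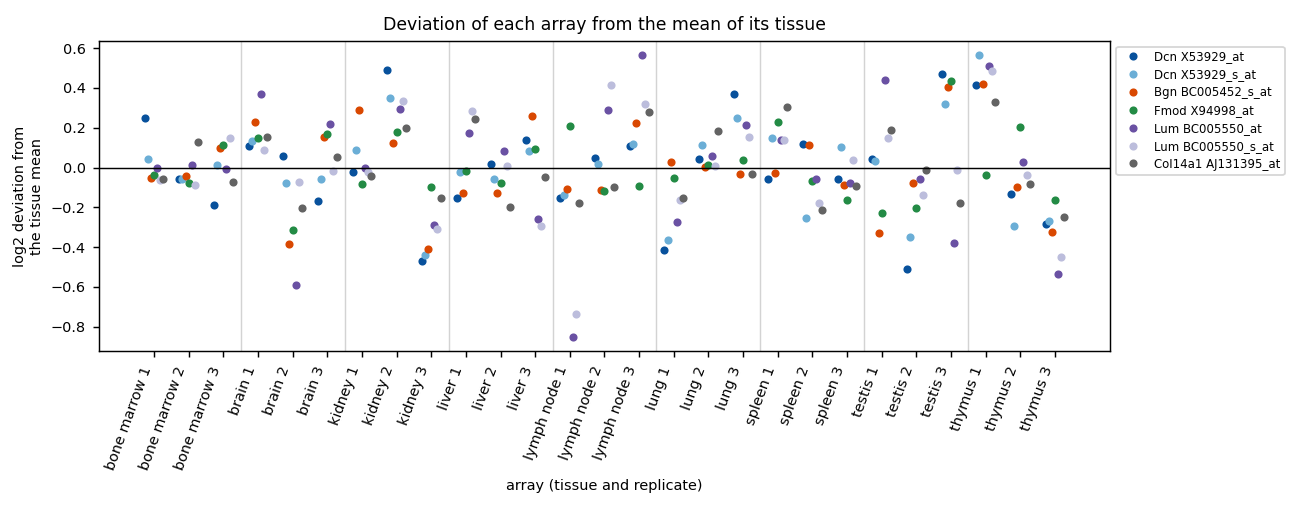
Log2 deviation of each array from the mean of its tissue, with a coloured point for each of the 7 probe sets. Kidney replicate 3 and thymus replicate 3 have all 7 points below 0, and lymph node replicate 1 has its lumican points at -0.85 and -0.74.

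Genes outside the set were ranked by likeness, as the Pearson correlation of their 9 tissue means with those of each probe set. The search covered 361 probe sets with a range of at least 1, and each gene entered through its best probe set. The highest of so many values over 9 tissues are high in part by selection. Biglycan was most like Pdgfrb on NM_008809_at (r = 0.93), the receptor of pericytes and fibroblasts. Next came Slc35b1 (0.90), a nucleotide transporter, and Vegfc (0.89), a growth factor of lymphatic vessels. Decorin on X53929_s_at was most like Slc35b1 (0.85), Osmr (0.84), a cytokine receptor subunit, and Lgals8 (0.76), a galectin. On X53929_at the order was Osmr (0.83), Slc35b1 (0.83) and Lepr (0.74), the leptin receptor. Fibromodulin was most like Il5ra (0.80), Cxcl13 (0.78) and Cxcr5 (0.75), a cytokine receptor, a chemokine of B cell follicles and its receptor. Lumican on BC005550_at was most like the chemokine Ccl12 (0.85), the lectin Cd209e (0.77) and the chemokine Ccl8 (0.75), and on BC005550_s_at the same 3 genes led. Col14a1 was most like Man2a1 (0.78), a mannosidase of N-glycan processing, Lgals8 (0.76) and Itgax (0.75), an integrin of dendritic cells.

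Genes that work with these proteins were described from lists. The counts on each list are read against the F test over all mouse probe sets, of which 52.3% were called, with a median range of 1.07. Of the other proteoglycan core proteins, 9 of 23 probe sets (20 genes) were called, with a median range of 0.78, both below those values. The widest ranges on that list belonged to Srgn, the serglycin of blood cell granules (26.4-fold and 18.2-fold), and Cd44, the hyaluronan receptor (15.0-fold, highest in bone marrow at 6054 ± 1348, SD, n = 3). Srgn and Cd44 were called higher in bone marrow, where decorin was called lower. They were also called higher in lymph node and lung, as decorin was, and in spleen, where decorin was not called. Smc3, next at 6.04-fold, is better known as a cohesin subunit. Other small leucine-rich proteoglycans and other collagens on the lists had no matched probe set and were not analysed here.

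The chains that these cores carry are made by enzymes of 2 further lists. For chondroitin and dermatan sulfate synthesis, 4 of 10 probe sets (8 genes) were called by the F test, against 52.3% of all, with a median range of 0.69. The widest was B3gat3, which adds the glucuronic acid of the linker, at 2.28-fold. In no single tissue against the other 8 was any of these 10 called by limma, and 2 to 5 of them had an unadjusted p under 0.05, depending on the tissue. Keratan sulfate synthesis had 6 of 8 probe sets (7 genes) called, against the same 52.3%, with a median range of 1.40 against 1.07 over all. Its widest was B4galt4, a galactosyltransferase, which peaked in lung at 922 ± 173 (9.60-fold range, adjusted p = 6.61e-14), where fibromodulin and lumican were not called.

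Ligands and receptors tied to decorin and biglycan were on 2 more lists, whose shares of calls lay near the 52.3% of all mouse probe sets. On the TGF-beta list, 5 of 9 probe sets (8 genes) were called by the F test, with a median range of 1.003. Tgfb1, the ligand that decorin binds, peaked in spleen at 1367 ± 219 and ranged 13.6-fold (adjusted p = 4.88e-13). Acvrl1, an endothelial receptor of the family, peaked in lung at 1839 ± 257, and Bmp4 peaked in lung as well, at 936 ± 56.1. Of receptors reported to bind decorin or biglycan, 3 of 5 probe sets (4 genes) were called, with a median range of 1.34. Egfr peaked in liver (1346 ± 312), and Igf1r (1187 ± 185) and Met (597 ± 44.5) peaked in kidney, tissues in which no member was called. Over the 9 tissue means, the correlation of these receptors with decorin (X53929_s_at) was 0.21 for Egfr, -0.40 for Igf1r and 0.15 for Met.

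On the genome, Dcn and Lum are next to each other on chromosome 10, with Kera, the keratocan gene, on the other side of Lum, per RefSeq (assembly GRCm38.p6). Fmod lies on chromosome 1 beside Prelp, another member of the family, Bgn on chromosome X and Col14a1 on chromosome 15. The neighbours Dcn and Lum shared lymph node as their leading tissue and differed in lung, where the decorin probe sets were called and those of lumican were not, a difference that was not itself tested. Biglycan and fibromodulin were both higher in lymph node and spleen and lower in bone marrow, and opposed each other between lung and lymph node, and their promoters were the 2 of the 5 genes found in the RefSeq table. The 250 bases before the start of each are given 5′ to 3′ from the plus strand of GRCm38.p6, for Bgn at chrX:73483351-73483600 and for Fmod at chr1:134037004-134037253. Capitals mark the GC box GGGCGG and the E box CANNTG on either strand.
Bgn: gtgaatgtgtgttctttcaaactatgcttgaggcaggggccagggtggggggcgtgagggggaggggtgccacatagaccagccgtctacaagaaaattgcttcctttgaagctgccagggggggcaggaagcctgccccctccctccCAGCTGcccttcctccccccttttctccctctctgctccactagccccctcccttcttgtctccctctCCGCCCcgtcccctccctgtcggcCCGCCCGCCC
Fmod: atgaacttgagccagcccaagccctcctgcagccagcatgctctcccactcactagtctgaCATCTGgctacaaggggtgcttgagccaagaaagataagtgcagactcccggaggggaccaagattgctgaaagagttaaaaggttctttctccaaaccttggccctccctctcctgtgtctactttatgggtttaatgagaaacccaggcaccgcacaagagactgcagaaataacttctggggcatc

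The Bgn sequence held 3 GC boxes, of which the 2 nearest the start overlap, and 1 E box. The Fmod sequence held 1 E box and no GC box. A GC box occurs in 32.7% of the 32851 promoters of this length in the table and an E box in 66.2%. The letters TATAAA, in 12.4% of promoters, and TGANTCA, an AP-1 site, in 6.75%, were searched on both strands and were not in either window. The GC content was 64.4% for Bgn and 51.2% for Fmod, with a median of 52.4% over all promoters. These matches describe the letters of the windows and say nothing about the binding of a factor.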

How the data were processed

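Per the labels, total RNA carried a biotin label, and the design text names the custom array. The deposited table holds 1 linear intensity per probe set and array, for 1813 probe sets on 27 arrays. How the authors summarised, background-corrected and scaled these intensities is not given in the sources used here. Array medians lay between 221.5 and 243.7, and no 2 arrays held identical values. Values were used as deposited.

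Names came from the platform annotation (probe sets: 1563 with 1 symbol, 2 with several, 248 with none). The 702 whose gene identifier matched a mouse gene in RefSeq (573 genes) were tested, and 839 human probe sets served as background only. Intensities under 16 were raised to 16 (51 mouse values, 0.269%, none of a member) and log2 was taken. The model had 1 coefficient for each tissue and took in all 27 arrays (limma 3.58.1 under R 4.3.3, lmFit and eBayes), with Benjamini-Hochberg adjustment over probe sets within each comparison. The comparisons were a moderated F test, each tissue against the other 8, lymphoid and blood-forming against the other 5 tissues, and the 36 pairs. Folds are powers of 2 of log2 differences.

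Every member probe set is named, with the 3 genes most like it and up to 4 probe sets with the largest range among those called on each list. The members and lists were chosen with earlier results of these data known. On simulated data for lung against the other 8, with 200 of 702 probe sets changed, the script called 100% at log2 changes of 1.5, 2 and 3, 0% at 0.5, and 0% of the 502 unchanged. Alternatives were quantile normalization, median centring, a floor of 64, an offset of 16, a filter that kept the 468 probe sets with the highest means, 1 probe set per gene or their mean, array weights, trend and robust settings in eBayes, the title number as a replicate block, the median of the other tissues, a joint adjustment over pairs, and leaving out each array. A beta-actin 3′ to 5′ covariate and a fit without replicate 1 of thymus and kidney were chosen after seeing the data.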

Additional observations from a re-analysis of the deposited data

How the results depend on the processing

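No member value that was called changed direction under any alternative run. Over the single-tissue contrasts, the lymphoid contrast and the ranges, 2989 values kept their side of the threshold, 13 lost a call and 9 gained one. With the dimmest probe sets left out by the filter on low means, 4 of the 7 members were tested and all 4 were called by the F test, since Fmod, Col14a1 and BC005550_s_at of Lum were left out. Leaving out single arrays gave 12 to 16 contrasts called higher, 8 to 9 lower, 136 to 145 pairs, 7 by the F test and 0 for the lymphoid contrast. Of the losses, 12 were of Lum BC005550_at in thymus, also with array weights (0.83), an offset of 16 (0.97), probe sets averaged (0.90) and without replicate 1 of thymus and kidney (0.76), and the other was Bgn in lymph node. Against the median of the other tissues, Dcn X53929_at in thymus (1.15), Lum BC005550_s_at in thymus (1.11) and Dcn X53929_s_at in testis (-1.10) passed the size threshold. With the title number as a replicate block there were 13 contrasts called higher, 8 lower and 141 pairs, as without it. Same-numbered arrays of different tissues had a median correlation of deviations of 0.02, and differently numbered ones 0.01, so the numbers were not taken to pair the samples. Median centring moved the median of all probe sets by over 0.1 in lung (-0.03 to -0.14), lymph node (-0.04 to -0.16) and spleen (-0.01 to -0.11), and Bgn in lung then stood at 3.15. Signals near the human median limit what can be said of low tissues, above all for Fmod, Lum and Col14a1.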
